A study of Mus musculus with 24 samples.

Results

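mmu-miR-802-5p is the arm of the mouse miR-802 hairpin that is usually studied in the liver, and it was followed here along the axis of the liver lobule. It was chosen by name, as 1 of the 1881 mouse miRNAs on the arrays, with its signal, error and detection call read on all 24 of them. The arrays compared hepatocyte populations of male C57BL/6J mice aged 3 months, which had free access to food, a reversed light cycle and no treatment. From each of 3 mice, cells freed by liberase perfusion were stained and sorted into 8 populations of 50000 cells, called zones. Zone 1 had the most CD73, a surface enzyme of hepatocytes near the central vein, and zone 8 the most E-cadherin, an adhesion protein of hepatocytes near the portal tract. Every group therefore shared genotype, age, sex and feeding, with 3 arrays per zone.

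The gates limit what the groups stand for. They kept viable cells with a tetraploid DNA content and removed cells carrying CD45 (leukocytes) or CD31 (endothelium), so diploid hepatocytes were not measured. Each mouse had its 8 arrays on a slide of its own, so effects of mouse and of slide cannot be separated. Going by the array positions, zones 1 to 4 lay in row 1 and zones 5 to 8 in row 2 of all 3 slides, so the pericentral or periportal side of the lobule and the slide row cannot be told apart.

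A miRNA is cut from a hairpin transcript, and its seed, bases 2 to 8, pairs with messenger RNAs that it represses. miR-802 is known for its rise in the liver of obese mice and of people with obesity, where it weakens insulin signalling and worsens glucose tolerance. The lobule is itself divided in glucose metabolism, with gluconeogenesis stronger near the portal tract and glycolysis near the central vein.

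The sequences below are from RefSeq on GRCm38.p6, whose table held 1608 of the 1881 miRNAs by name. Mir802 is a miRNA gene on the plus strand at chr16:93369720-93369816. In its hairpin of 97 bases, shown to place the arms, capitals mark miR-802-5p (bases 18 to 39) and miR-802-3p (bases 56 to 77).
Mir802 hairpin: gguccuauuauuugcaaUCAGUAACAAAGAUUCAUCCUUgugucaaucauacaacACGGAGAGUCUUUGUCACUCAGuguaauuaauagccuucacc
In the mature arms, capitals mark the seed.
mmu-miR-802-5p: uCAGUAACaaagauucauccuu
mmu-miR-802-3p: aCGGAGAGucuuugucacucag

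Mature miR-802-5p lies at chr16:93369737-93369758 and has A or U at 15 of its 22 bases. Of the 1679 mature miRNA names in the table, its seed occurred in 1, its own, so it has no seed family there. Among 1607 other array miRNAs, the longest run of bases shared with it was 8, in miR-211-5p, miR-6516-5p and miR-7210-3p, none of which was detected on any array. The longest run shared with a detected miRNA was 7. No annotated gene overlapped Mir802. Its nearest neighbours were the long noncoding RNA genes 1810053B23Rik, which ended 10176 bases before it, and 1700029J03Rik, which began 26998 bases after it. The nearest protein-coding genes were Runx1, a blood-cell transcription factor 544 kb before, and Setd4, a methyltransferase gene 214 kb after.

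On the 12 pericentral arrays, zones 1 to 4, miR-802-5p was never called detected, and on each of the 12 periportal arrays, zones 5 to 8, it was. Its signal, in linear intensity units without scaling, was 5.53 in zone 5 of mouse 1, 8.14 in mouse 2 and 12.7 in mouse 3. In zone 6 the signals of mice 1, 2 and 3 were 9.94, 19.3 and 14.7. Zone 5 of mouse 1 held the lowest of the measured signals, and zone 6 exceeded zone 5 within each mouse. In zone 7 the same mice had 11.0, 22.7 and 15.6, and in zone 8 they had 12.1, 22.9 and 17.6. The highest signal was that of zone 8 in mouse 2, and mouse 1 was the lowest mouse in every zone. Each array also carries an error for each signal. For miR-802-5p it was 8.35% to 17.8% of the signal, with a median of 9.47%.

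**Figure D1:**
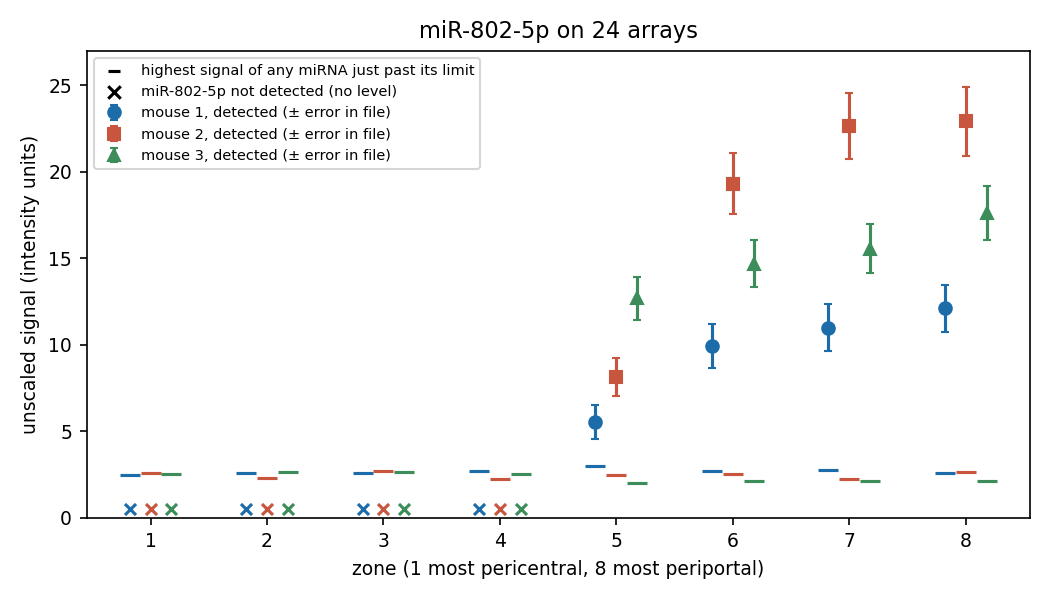
The unscaled signal of miR-802-5p (intensity units, vertical axis) is plotted by zone for each mouse, with the error from the file as bars, crosses for arrays on which it was not detected, and short lines at the highest signal among miRNAs just past the detection limit of that array. The 12 periportal points run from 5.53 to 22.9, all above those lines, and zones 1 to 4 hold crosses alone.

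The step between zones 4 and 5 was set against the sensitivity of the arrays. A miRNA was called detected in these files when its signal was at least 3 times its error, and an undetected one carried a placeholder of 0.1. A straight line through the errors of miR-802-5p in zones 5 to 8 (0.659 plus 0.0541 for each unit of signal) was extended below its measured signals. It put the limit of miR-802-5p at a signal of 2.36, so the lowest measured signal was 2.34-fold above that limit. The limit was not measured on the arrays of zones 1 to 4. On the arrays of zones 1 to 4, miRNAs just past detection, at 3 to 3.5 times their error, had signals of at most 2.24 to 2.72. On those of zones 5 to 8 the same highest value was 2.02 to 3.00, so over all slides this measure overlapped between the sides of the lobule. By slide it overlapped in mice 1 and 2. In mouse 3 it was 2.52 to 2.65 in zones 1 to 4 and 2.02 to 2.15 in zones 5 to 8, so sensitivity there was greater in zones 5 to 8. Summed signal overlapped over all slides as well, with 65970 to 137270 in zones 1 to 4 and 57935 to 138301 in zones 5 to 8. In mouse 1 it did not overlap, with 65970 to 94527 in zones 1 to 4 and a lower 57935 to 65600 in zones 5 to 8. The number of detected miRNAs, 248 to 313 and 252 to 368, overlapped over all slides. In mouse 3 it did not, with 289 to 308 in zones 1 to 4 and 311 to 368 in zones 5 to 8. For 5 control sequences detected on all arrays, the 15 differences between rows on single slides ran from -0.485 to 0.324 log2 units (row 2 minus row 1). They went both ways by slide: from -0.209 to 0.247 in mouse 1, with all 5 below 0 in mouse 2 (-0.485 to -0.189) and all 5 above 0 in mouse 3 (0.064 to 0.324). The detection step of miR-802-5p was present on all 3 slides. Each slide had the same split of zones by row, so side of the lobule and row cannot be told apart here either.

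Because zone 1 has no measured level, the fold between the ends of the axis depends on the limit put in its place. After scaling, zone 8 was 5.19-fold above the highest just-detected signal on the zone 1 arrays and 5.59-fold above the limit from its own errors. Against the lowest signal of any miRNA on the zone 1 arrays it was 11.7-fold higher, which is not a lower bound, since limits differ between miRNAs. Zone 5 was likewise 3.39-fold and 3.57-fold above the first 2 of these references on the zone 4 arrays. A bulk signal of this kind cannot tell fewer cells with the miRNA from less miRNA per cell.

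Levels were fitted with limma on log2 signals scaled to each array's 75th percentile, with undetected values at a floor of 0.17. For miR-802-5p a fit over all 24 arrays compares 12 measured values with 12 copies of that floor, and it was among the miRNAs tested only through zones 5 to 8. Its size and its p then follow from the floor: the slope over zones 1 to 8 was 0.70 log2 units per zone with this floor and 1.08 with a floor 4 times lower. These fits are therefore given as no test of miR-802-5p, and its difference between the sides of the lobule rests on the detection calls and the limits above. Among all 339 miRNAs tested, limma called 35 higher, 10.3%, and 22 lower, 6.49%, by the slope over zones 1 to 8. Zones 5 to 8 against zones 1 to 4 had 10.3% higher and 5.90% lower, zone 8 against zone 1 had 4.72% and 0.590%, and zone 5 against zone 4 had 2.06% and 0.295%. Without a mouse block the fits took arrays of the same mouse as independent, and with it they used the spread within mice. Their p-values, here and below, therefore do not measure variation between animals. With slide row as a term beside a mouse block, none of the miRNAs named below for their slope passed. Row and side of the lobule split the arrays alike, so that term also takes away any step between the sides. This fit therefore cannot tell a difference along the lobule from one between the rows.

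Detection on every periportal array and on no pericentral one was seen for 4 miRNAs: miR-802-5p, both arms of miR-31, and miR-125a-5p. The reverse pattern was seen for 0. No order can be given among zones 1 to 4, where miR-802-5p had no level.

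Zones 5 to 8 lie in the same slide row on each slide, and miR-802-5p was measured on all their arrays, so comparisons among them involve neither the floor nor the row. Scaled signals of mice 1, 2 and 3 were 7.08, 10.7 and 9.47 in zone 5 and 11.8, 17.1 and 11.5 in zone 6. They were 13.4, 20.9 and 15.1 in zone 7 and 11.9, 20.3 and 13.9 in zone 8. Zone 5 did not overlap any of the other 3 zones after scaling, while zones 6, 7 and 8 overlapped one another. As log2 means ± SD over 3 mice, zone 5 was at 3.16 ± 0.31, zone 6 at 3.73 ± 0.32, zone 8 at 3.91 ± 0.40 and zone 7 at 4.01 ± 0.33, in rising order. The error of a single array was smaller than these SDs, at a mean of 0.14 to 0.20 log2 units by zone.

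**Figure D2:**
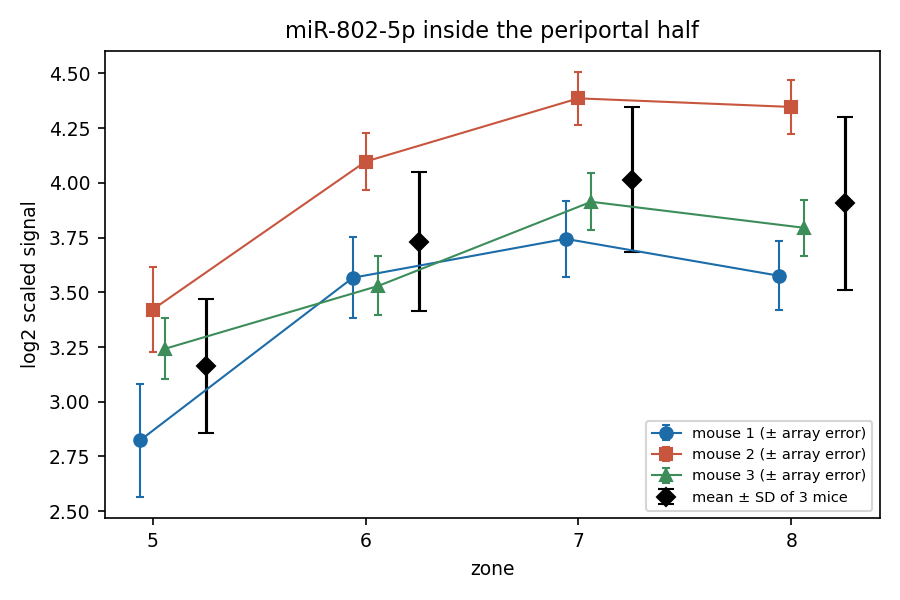
The log2 scaled signal of miR-802-5p (vertical axis) is plotted in zones 5 to 8, with a line and array error bars for each mouse and black diamonds for the mean ± SD of 3 mice. Each mouse is lowest in zone 5 and highest in zone 7, and mouse 2 lies above the others in every zone.

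From zone 5 to zone 8, miR-802-5p was higher by 0.75 log2 units in mouse 1, 0.93 in mouse 2 and 0.55 in mouse 3. The mean difference was 0.74 ± 0.27 (95% interval 0.14 to 1.35, 1.67-fold), with a limma adjusted p of 0.341 over 302 miRNAs. Here and below, the ± of a difference or slope is the standard error of the limma fit, not an SD. With the 3 mice as a block the difference was 0.74 ± 0.11 (0.48 to 1.01) and passed the threshold (limma adjusted p = 0.0406). By limma 0 of 302 miRNAs passed without the block, 0%, with 24 at an unadjusted p under 0.05, and with it 1 miRNA, miR-802-5p, was higher and 1 lower, 0.331% each. The slope over zones 5 to 8 was 0.25 ± 0.09 per zone (0.06 to 0.45, limma adjusted p = 0.287), rank 17 of 302, and the block gave ± 0.06 (0.12 to 0.38, limma adjusted p = 0.110). Without zone 5 the slope was 0.09 ± 0.13, and without zone 8 it was 0.43 ± 0.12, and neither passed. For that slope 0 miRNAs passed either fit by limma, with 30 at an unadjusted p under 0.05 without the block and 44 with it.

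Most of the mean difference lay between zones 5 and 6. There miR-802-5p differed by 0.74 log2 units in mouse 1, 0.68 in mouse 2 and 0.29 in mouse 3, which were 2.35, 2.87 and 1.48 times the error that the files give for each step. The mean step of 0.57 (-0.04 to 1.17) did not pass (limma adjusted p = 0.995, and 0.115 with the block). From zone 6 to zone 7 the steps were 0.18, 0.29 and 0.38, each at most 2.05 times its error, with a mean of 0.28 (-0.32 to 0.89, limma adjusted p = 1.00).

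From zone 7 to zone 8 the scaled level was lower in all 3 mice, by steps of -0.17, -0.04 and -0.12, none as large as its error. The mean was -0.11 (-0.71 to 0.50, limma adjusted p = 0.991). Its sign came from the scaling: unscaled, the zone 8 signal was 1.10-fold, 1.01-fold and 1.13-fold that of zone 7, and the mean step was 0.11. Zones 6 and 8 differed by 0.17 (-0.43 to 0.78, limma adjusted p = 1.00). With the mice as a block the interval of zone 6 minus zone 5 was 0.30 to 0.83. Those of zone 7 minus zone 6 (0.02 to 0.55) and zone 8 minus zone 6 (-0.09 to 0.44) overlapped it, and that of zone 8 minus zone 7 (-0.37 to 0.16) did not. In mouse 3 the step from zone 6 to zone 7 (0.38) exceeded that from zone 5 to zone 6 (0.29). None of the comparisons among zones 6, 7 and 8 passed with the block (limma adjusted p of 0.812 or more). No order among zones 6, 7 and 8 was thus shown. By limma 0 miRNAs passed any of these 4 comparisons, 0%, with 8 (zones 5 and 6), 0 (6 and 7), 4 (7 and 8) and 2 (6 and 8) at an unadjusted p under 0.05.

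The mice, each on its own slide, also differed in miR-802-5p. The tests below take their spread from the zone arrays within mice, so their p-values do not measure variation between animals. In zones 5 to 8 mouse 2 was higher than mouse 1 by 0.64 ± 0.10 log2 units, 1.55-fold (limma adjusted p = 0.00191), where 12.9% of miRNAs were higher and 14.2% lower. Mouse 3 minus mouse 2 was -0.44 ± 0.10 (limma adjusted p = 0.0168), where 13.6% were higher and 9.93% lower. Mouse 3 minus mouse 1 was 0.19 ± 0.10 and did not pass (limma adjusted p = 0.218), where 11.6% were higher and 3.97% lower. Over the 3 mice the F was 21.7 (limma adjusted p = 0.00491), in a comparison where 32.5% of miRNAs passed. It did not pass after scaling by summed signal (F = 4.24, limma adjusted p = 0.0920) or without zone 7 (F = 11.1, limma adjusted p = 0.0611). Unscaled, mouse 2 was highest in zones 6 to 8 and mouse 3 in zone 5.

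The slope of miR-802-5p over zones 5 to 8 was 0.24 per zone in mouse 1, 0.31 in mouse 2 and 0.20 in mouse 3. The 3 slopes did not differ by the test of their interaction (F = 0.232, limma adjusted p = 0.874). By limma 0 miRNAs passed that test, 0%, with 73 at an unadjusted p under 0.05.

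The other arm, miR-802-3p, was detected on none of the 24 arrays. The file gives both arms their own row, so the periportal signal was that of the 5p arm alone at this sensitivity. Of the miRNA genes nearest to Mir802 that are on the arrays, Mir6367 lies 1.84 Mb before it and Mir6964 4.51 Mb after it, and none of their products was detected.

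Mir802 belongs to a stretch of mouse chromosome 16 whose human counterpart is shared with the genes of miR-99a, let-7c, miR-125b-2 and miR-155. In the mouse build, Mir155 lies 8.66 Mb before Mir802, and Mir125b-2, Mirlet7c-1 and Mir99a lie 15.7 to 15.8 Mb before it. Of 10 listed products 4 were detected and tested, and 3 of these were called higher over zones 1 to 8, where 10.3% of all miRNAs were. The call of miR-802-5p among them rests on the floor and is no test. The others were miR-125b-5p, by 0.24 ± 0.03 per zone (limma adjusted p = 2.58e-07), and miR-99a-5p, by 0.23 ± 0.03 (limma adjusted p = 8.86e-07). The slope of let-7c-5p was 0.02 ± 0.02 (limma adjusted p = 0.393), and -0.037 with quantile normalization. The median slope of the 4, with miR-802-5p included, was 0.24, and that of all miRNAs -0.014. Unlike miR-802-5p, the other 3 were detected on all 24 arrays. Mature miR-125b-5p and let-7c-5p each have another gene copy, on chromosomes 9 and 15, so their signal is not from chromosome 16 alone. The remaining 6, miR-802-3p, miR-99a-3p, let-7c-1-3p, miR-125b-2-3p and both arms of miR-155, were not detected.

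The profiles most like that of miR-802-5p were found by Pearson's r of log2 scaled signals, as a description. Over 24 arrays they were those of miR-31-5p (r = 0.987), miR-125a-5p (0.982), miR-31-3p (0.967), let-7e-5p (0.966), miR-125b-5p (0.960) and miR-99a-5p (0.923), against a median of -0.081 over 338 miRNAs. These arrays share mouse, slide and row, and for miR-802-5p 12 of them sit at the floor, so the values mainly show the step at zone 5. By Spearman's rho, 2 of the 6, the arms of miR-31, stayed among the first 6. The sequences are shown to compare their seeds with that of miR-802-5p, with the seed in capitals.
mmu-miR-31-5p: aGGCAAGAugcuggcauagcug
mmu-miR-31-3p: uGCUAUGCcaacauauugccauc
mmu-miR-125a-5p: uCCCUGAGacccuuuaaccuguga
mmu-miR-125b-5p: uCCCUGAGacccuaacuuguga
mmu-let-7e-5p: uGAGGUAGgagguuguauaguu
mmu-miR-99a-5p: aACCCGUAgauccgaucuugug

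miR-125a-5p and miR-125b-5p share a seed, and none of the 6 has that of miR-802-5p. The longest run any of them shares with miR-802-5p was 5 bases. Like miR-802-5p, miR-31-5p had no level in zones 1 to 4, and then signals of 45.0, 17.7 and 63.7 in zone 5 and 75.4, 89.8 and 109.9 in zone 8 of mice 1, 2 and 3. miR-125a-5p had 14.3, 9.45 and 24.8 in zone 5 and 19.9, 20.1 and 29.3 in zone 8. let-7e-5p, whose gene is in a cluster with that of miR-125a on chromosome 17, was detected on 4 of the 12 pericentral arrays. miR-125b-5p was measured on both sides of the step, with 71.9, 60.5 and 80.3 in zone 4 and 134.8, 108.1 and 193.9 in zone 5.

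**Figure D3:**
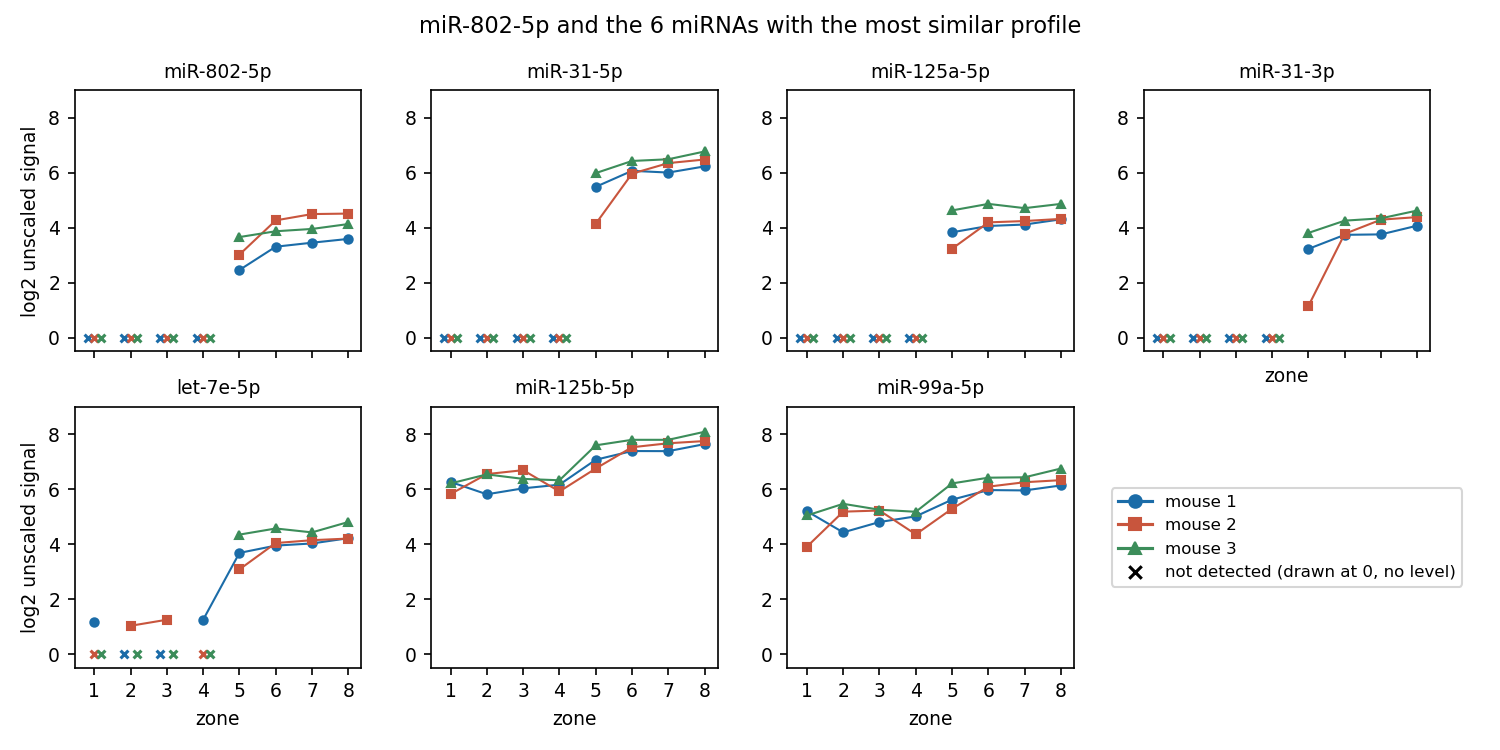
The log2 unscaled signal (vertical axis) is plotted by zone (horizontal axis) for miR-802-5p and the 6 miRNAs with the highest r over 24 arrays, with a line per mouse and crosses at 0 where a miRNA was not detected. miR-802-5p, both arms of miR-31 and miR-125a-5p have points from zone 5 on only, and in zone 8 mouse 2 is the highest mouse for miR-802-5p but not for the other 6.

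Inside zones 5 to 8, after each mouse's mean was taken away, the highest r among 213 miRNAs measured on all 12 arrays were those of let-7e-5p (0.909), miR-31-5p (0.898), miR-125a-5p (0.892), miR-125b-5p (0.878) and miR-99a-5p (0.871), with a median of -0.180. With the mouse means kept, the same 5 values were 0.136, 0.410, 0.048, 0.398 and 0.404. The lowest after removal were miR-709 (-0.946), miR-8110 (-0.892) and miR-5126 (-0.868). The difference between the 2 ways lies in offsets between mice, which are also offsets between slides. miR-802-5p was 0.64 log2 units higher in mouse 2 than in mouse 1, whereas let-7e-5p was lower there, at -0.34 ± 0.09 (limma adjusted p = 0.0314), and so was miR-125a-5p, at -0.32 ± 0.09 (limma adjusted p = 0.0342). The values of miR-31-5p (-0.45 ± 0.21, limma adjusted p = 0.159), miR-125b-5p (-0.18 ± 0.09, 0.187) and miR-99a-5p (-0.16 ± 0.10, 0.286) had the same sign and did not pass.

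miR-802-5p was then set among miRNAs studied in glucose and insulin metabolism. Of 20 on the list, 14 were detected on any array and 13 were tested. Over zones 1 to 8, 4 of the 13, counting miR-802-5p whose call rests on the floor, were called higher and 1 lower, against 10.3% and 6.49% of all miRNAs. The median slope of the list, with miR-802-5p included, was 0.036 and that of all miRNAs -0.014. miR-802-5p was the only 1 of the 13 detected on all periportal and no pericentral arrays.

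The other 3 were measured on all arrays and rose. They were miR-23a-3p, studied as a repressor of gluconeogenic genes, by 0.12 ± 0.02 per zone (limma adjusted p = 0.000159), miR-26a-5p, known to improve insulin sensitivity in the liver of obese mice, by 0.089 ± 0.019 (limma adjusted p = 0.00131), and miR-378a-5p, encoded within the gene of the coactivator PGC-1beta, by 0.055 ± 0.018 (limma adjusted p = 0.0388). miR-107-3p, studied as a brake on insulin sensitivity in liver and fat, fell by 0.064 ± 0.019 per zone (limma adjusted p = 0.0206). Its close relative miR-103-3p had -0.021 ± 0.017 (limma adjusted p = 0.445). The calls of miR-378a-5p and miR-107-3p were lost without mouse 1 or mouse 3, that of miR-378a-5p also without any single zone other than 4 or 5, and that of miR-107-3p also without zone 1, 2 or 6, without scaling and with summed signal.

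Among the others, miR-29a-3p had 0.054 ± 0.020 (limma adjusted p = 0.0593), miR-29b-3p 0.033 ± 0.026 (limma adjusted p = 0.414) and miR-29c-3p 0.022 ± 0.019 (limma adjusted p = 0.470, and -0.039 with quantile normalization), members of a family raised in diabetic tissues. miR-33-5p, miR-34a-5p, miR-378a-3p and miR-22-3p did not pass either. With the mice as a block 7 rose, again counting miR-802-5p, and 1 fell, where 14.5% of all miRNAs rose and 16.5% fell. The added ones were miR-29a-3p (limma adjusted p = 0.0273), miR-33-5p (0.0186) and miR-378a-3p (0.0244). Of these, miR-33-5p was detected on only 4 arrays of zones 1 to 4 and 8 of zones 5 to 8. Its other values sat at the floor, so its call rests partly on the floor. Over zones 5 to 8, 0 of the 13 passed by limma with or without the block. The 6 never detected were miR-143-3p, miR-145a-5p, miR-181b-5p, miR-451a, miR-200a-3p and miR-200c-3p, and miR-200b-3p was detected on 1 array.

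**Figure D4:**
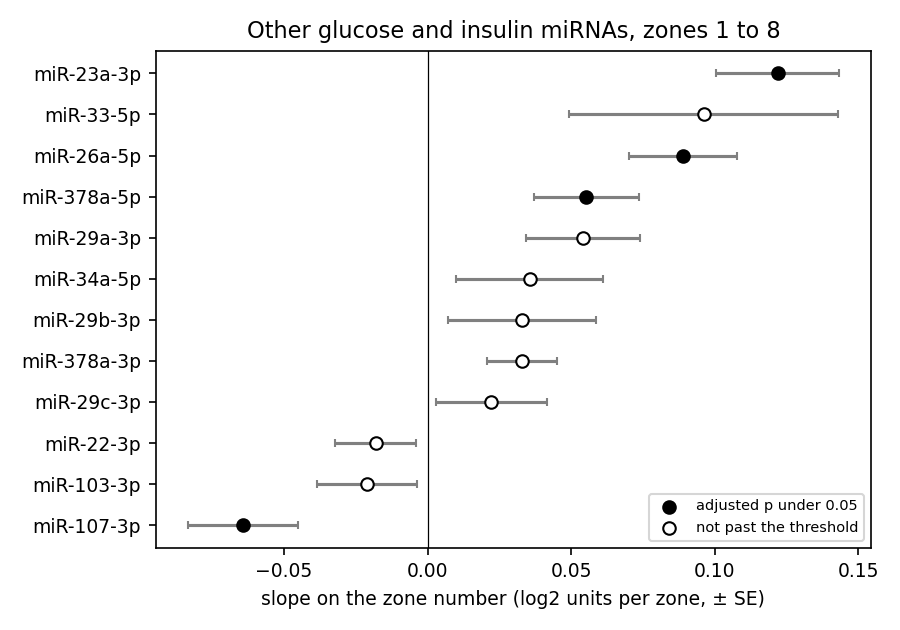
The slope over zones 1 to 8 (log2 units per zone, horizontal axis, ± SE) is plotted for the 12 tested miRNAs of the glucose and insulin list other than miR-802-5p, which has no measured level in zones 1 to 4, with filled points for limma adjusted p under 0.05. The 12 slopes lie between -0.064 and 0.12.

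Marker miRNAs of other cells were read beside these results, since miR-802 is also made outside the hepatocyte. All 5 hepatocyte markers were detected on all arrays, with a summed scaled signal of 7859 to 13273 in zones 1 to 4 and 12658 to 17366 in zones 5 to 8. None of 6 leukocyte and Kupffer cell markers and none of 5 stellate cell and fibroblast markers was detected on any array. Of 2 endothelial markers, miR-126a-3p was detected on 7 arrays of zones 1 to 4 and 9 of zones 5 to 8, with summed signals of 0 to 11.0 and 0 to 11.4, and miR-126a-5p on none. Of 5 markers of biliary and other epithelium, miR-200b-3p was detected on 1 periportal array at 1.88, and none of the 4 erythroid markers on the arrays was detected. Of 7 miRNAs of pancreatic islets and acini, 6 including the islet miRNA miR-375-3p were undetected. The other, miR-7a-5p, was detected on all 24 arrays with a slope of 0.060 ± 0.022 (limma adjusted p = 0.0605, and 0.0339 with the block). The part of endothelial RNA in the result was not tested.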

How the data were processed

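RNA from 24 sorted populations was read, with Cy3 label, on 1-colour Agilent miRNA arrays, as the labels' protocols state. Deposited columns used here hold intensity (total signal of a miRNA, linear scale), its error and a detection call. The submitters' processing notes name Agilent Feature Extraction, whose version was not given in the sources used here. Member, lists and tests were chosen with earlier results of these data known.

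Groups and mouse numbers came from the labels. The 21 control sequences were set aside. Arrays were brought to a common 75th percentile, computed over the 198 miRNAs that every array detected. Scaled signals below 1.12, the middle of the arrays' lowest scaled detected signals, were set to that floor before log2. Fits were two-sided and used limma 3.58.1 (lmFit, eBayes; R 4.3.3). P-values were adjusted by Benjamini-Hochberg over all miRNAs tested, at a threshold of 0.05. The fits covered 339 miRNAs detected on at least 6 of 24 arrays and, in zones 5 to 8, 302 detected on at least 6 of 12. The zone number is a rank, not a distance.

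Mouse numbers pair the arrays, since the populations of a number came from 1 animal. Deviations from zone means had a median correlation of 0.617 within mice (lowest 0.038) and of -0.356 across mice. Deviations from a mean of 3 mice cancel within a zone, so the value across mice is drawn below 0 by construction. The value within mice is also one within slides. The number of arrays limits the precision. Alternatives were a mouse block, slide row, 3 scalings, other filters and floors, eBayes with trend and robust, and leaving out a mouse or zone. Fits were tested on simulated data. Named miRNAs were the arms of Mir802, its seed sharers, neighbours and chromosome 16 list, the 6 most alike over 24 arrays, the 5 most and 3 least alike inside zones 5 to 8, those with the same detection pattern, and glucose-list members past the slope test with up to 4 others. miR-211-5p, miR-6516-5p, miR-7210-3p, the cell markers, the islet miRNAs and the remaining list members fall outside this rule and were named as members of counts. Figures used matplotlib 3.10.9 in Python 3.11.15.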

Additional observations from a re-analysis of the deposited data

How the results depend on the processing

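Leaving out 1 mouse at a time, the slope of miR-802-5p over zones 1 to 8 ran from 0.67 to 0.73. Zones 5 to 8 against zones 1 to 4 ran from 3.36 to 3.68, zone 8 against zone 1 from 3.52 to 3.91 and zone 5 against zone 4 from 2.87 to 3.17. That all 3 fits of each passed follows from the floor in zones 1 to 4 and is no test of miR-802-5p. All 4 values rest on the floor: with a floor 4 times lower they were 1.08, 5.54, 5.74 and 5.00, against 0.70, 3.54, 3.74 and 3.00. The slope inside zones 5 to 8 ran from 0.22 to 0.28 and zone 8 against zone 5 from 0.65 to 0.84, and none passed. Without zone 5 that slope was 0.09, and without zone 8 it was 0.43. With the mouse as a replicate block zone 8 against zone 5 passed at 0.74 (limma adjusted p = 0.0406). With that block 7 listed miRNAs rose over zones 1 to 8, counting miR-802-5p. The slope over zones 1 to 8 with the block and slide row as a term was 0.13 (limma adjusted p = 0.341). That fit is no test of miR-802-5p, since the row term takes away the step between the sides. In zones 1 to 4 it has copies of the floor alone. The F over mice did not pass with summed signal (4.24) or without zone 7 (11.1). The listed miRNAs that fell numbered 0 without scaling, 0 with summed signal and 3 with quantile normalization, which also turned the slopes of let-7c-5p to -0.037 and miR-29c-3p to -0.039. The fold of zone 8 over zone 1 was 5.59 and 5.19 against the limits chosen after seeing the data. Of the 6 most alike miRNAs 2 stayed by Spearman's rho, and of the 5 inside zones 5 to 8, 3 stayed with summed signal and 3 with quantile normalization. The median change of all miRNAs from zone 1 to zone 8 was -0.099 as scaled, 0.098 unscaled, 0.041 with summed signal and -0.071 with quantile normalization, with 35 rising and 22 falling, 36 and 3, 44 and 6, and 31 and 24. The cause of these changes was not tested. A filter on detection on all 24 arrays drops miR-802-5p, and a left-out zone gives no value for a contrast that needs it. The 75th percentile over all miRNAs left arrays unscaled. Low signal limits zones 1 to 4, where miR-802-5p has a bound alone.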

Other observations

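The closest opposite of miR-802-5p inside zones 5 to 8 was miR-709, an array signal measured on all 24 arrays. Its log2 difference from zone 5 to zone 8 after scaling was -0.52 in mouse 1, -0.57 in mouse 2 and -0.70 in mouse 3, where miR-802-5p had 0.75, 0.93 and 0.55. From zone 5 to zone 6 the differences were -0.51, -0.51 and -0.48 for miR-709 and 0.74, 0.68 and 0.29 for miR-802-5p. That was the largest step of both in mice 1 and 2. In mouse 3 the step of miR-802-5p from zone 6 to zone 7 was larger, at 0.38. The fall of miR-709 depended on the scaling. Unscaled, its signals in zones 5 and 8 were 110.3 and 99.8 in mouse 1, 108.3 and 108.5 in mouse 2, and 150.1 and 87.7 in mouse 3. Over zones 1 to 8 miR-709 fell by 0.13 ± 0.03 log2 units per zone (limma adjusted p = 0.00358), a call lost with summed signal (0.134).

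Between the mice, and so between their slides, miR-8110 and miR-5126 were higher in mouse 2 than in mouse 1, as miR-802-5p was. These next lowest in likeness inside mice differed by 0.63 ± 0.09 (limma adjusted p = 0.00139) and 0.80 ± 0.09 log2 units (limma adjusted p = 0.00043), against 0.64 ± 0.10. For mouse 3 minus mouse 1 their values were -0.28 and -0.13 and that of miR-802-5p 0.19, and none of the 3 passed (limma adjusted p = 0.0688, 0.355 and 0.218). With mouse means kept, their r with miR-802-5p was 0.219 and 0.324 in place of -0.892 and -0.868.

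The size of the difference from zone 5 to zone 8 varied by mouse among the miRNAs most like miR-802-5p. In mouse 2 it was 2.67 log2 units for miR-31-3p, whose zone 5 signal there was 2.23, and 1.77 for miR-31-5p, against 0.93 for miR-802-5p. The other 4 were lower than miR-802-5p there, at 0.52 for miR-125a-5p, 0.55 for let-7e-5p, 0.43 for miR-125b-5p and 0.47 for miR-99a-5p. In mouse 3 the arms had 0.89 and 0.87, against 0.55. In mouse 1 they had 0.47 and 0.37, against 0.75. No test of these differences between miRNAs was made.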
